A study of Homo sapiens with 6 samples.

Results

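The 10 genes described here are the 4 fibroblast growth factor (FGF) receptors, FGFR1 to FGFR4, and 6 genes that lie next to FGFR1 on the short arm of chromosome 8 (band 8p11): ASH2L, BAG4, DDHD2, PLPP5, NSD3 and LETM2. They were chosen by symbol from the 17081 rows of the count table, all 10 were found, and all 10 were among the 13382 genes that passed the filter on low counts. The libraries came from tumours that DMS114, a human cell line from a small cell lung cancer, formed in a model of invasion along the sciatic nerve. The proximal group (3 libraries) is tumour from the proximal invaded region and the distal group (3 libraries) tumour from the distal one. Both groups carry the same line, and the labels name no genotype change, drug, time point, host strain or host age for either. All libraries thus stand for 1 cell line. Nothing in the labels ties a library to an animal, and p-values therefore reflect only how these libraries spread, which may be technical.

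FGF receptors are tyrosine kinases of the cell surface. A secreted FGF, held by heparan sulfate chains, brings receptors together. They then phosphorylate the adaptor FRS2 and drive the RAS and ERK kinases, and ERK activity raises the feedback genes of the Sprouty and DUSP families. The 8p11 segment with FGFR1 is amplified in some lung and breast cancers and is described as amplified in DMS114. The counts used here measure RNA and not gene copies.

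The libraries held 16171106 to 26116191 counts. Levels are given as CPM (counts scaled by library size), and levels of different genes are compared as CPM per kilobase of annotated exon. YAP1, which marks a non-neuroendocrine class of small cell lung cancer, was read at 167 to 187 CPM, and neuroendocrine markers ranged from INSM1, below 2 CPM in each library, through CHGA (6.35 to 7.57 CPM), DLL3 (6.33 to 12.9 CPM) and ENO2 (22.4 to 51.0 CPM) to SYP (56.9 to 63.9 CPM). Skeletal muscle markers (16 genes summed) took 10.8, 37.9 and 342 CPM in proximal 1 to 3 and 7.31, 27.3 and 2326 CPM in distal 1 to 3, so proximal 3 and distal 3 stood apart in muscle RNA. Summed Schwann cell markers took 123 to 205 CPM in proximal and 130 to 176 CPM in distal tumour. Of these 10 markers 4 had a mean of at least 10 CPM, and 3 stayed below 1 CPM in every library. Of 9 fibroblast markers COL3A1, DCN and LUM were abundant in every library (summed list 4610 to 6202 CPM), but PDGFRA stayed at 1.28 CPM or less. Endothelial, immune and adipocyte markers summed to 5.80 CPM or less in each library.

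FGFR1 was by far the leading FGF receptor in all 6 libraries. Its level was 97.7, 124 and 103 CPM in proximal 1 to 3 and 104, 106 and 134 CPM in distal 1 to 3. The groups overlapped, and the highest library of each group, proximal 2 and distal 3, stood above the other 4. In bulk RNA, fewer cells of a type and less RNA per cell cannot be told apart. The gene lies on chromosome 8 at 38411143 to 38468635 (GRCh38). Per exon kilobase FGFR1 had 17.1 CPM (SD 2.20 over the 6 libraries), which put it at percentile 71.3 of the genes tested. Of the summed per-kilobase level of the 4 receptors it held 74.9% to 76.3%, a share that hardly moved between libraries.

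FGFR4, a receptor used by FGF19 and known in liver and in regenerating muscle, was the second receptor by level (chromosome 5, 177086915 to 177098144). It had 11.0, 11.3 and 11.6 CPM in proximal 1 to 3 and 10.8, 11.8 and 13.4 CPM in distal 1 to 3. Distal 3, which also held the most muscle RNA, was the highest, and the other 5 lay close together. The part of muscle RNA in that value was not tested. Proximal 3, second in muscle markers, was between proximal 2 and distal 2. The per-kilobase level of FGFR1 was 4.32 to 5.41 times that of FGFR4.

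FGFR2, an epithelial receptor with splice forms for different FGFs, was low and lay at separate levels (chromosome 10, 121478330 to 121598458). Its level was 4.06, 8.40 and 4.00 CPM in proximal 1 to 3 and 3.92, 3.75 and 8.73 CPM in distal 1 to 3. Proximal 2 and distal 3 were thus high, as they were for FGFR1, and the difference exceeded counting error. The exact Poisson 95% intervals of these 2 libraries, 7.23 to 9.72 CPM and 7.36 to 10.3 CPM, lay clear of the other 4 intervals, which together ran from 3.02 to 4.92 CPM. These intervals cover counting error only.

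FGFR3, a receptor best known from cartilage and bladder, was as low as FGFR2 but even across libraries (chromosome 4, 1793293 to 1808867). It had 4.26, 5.50 and 4.67 CPM in proximal 1 to 3 and 4.85, 4.45 and 4.09 CPM in distal 1 to 3. All 6 Poisson intervals overlapped, with the lowest bound at 3.17 and the highest at 6.58 CPM. Its spread over libraries (coefficient of variation 10.8%) was close to the 9.86% that counting alone would give, whereas for FGFR2 the spread was 43.8% against 9.07%.

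**Figure D1:**
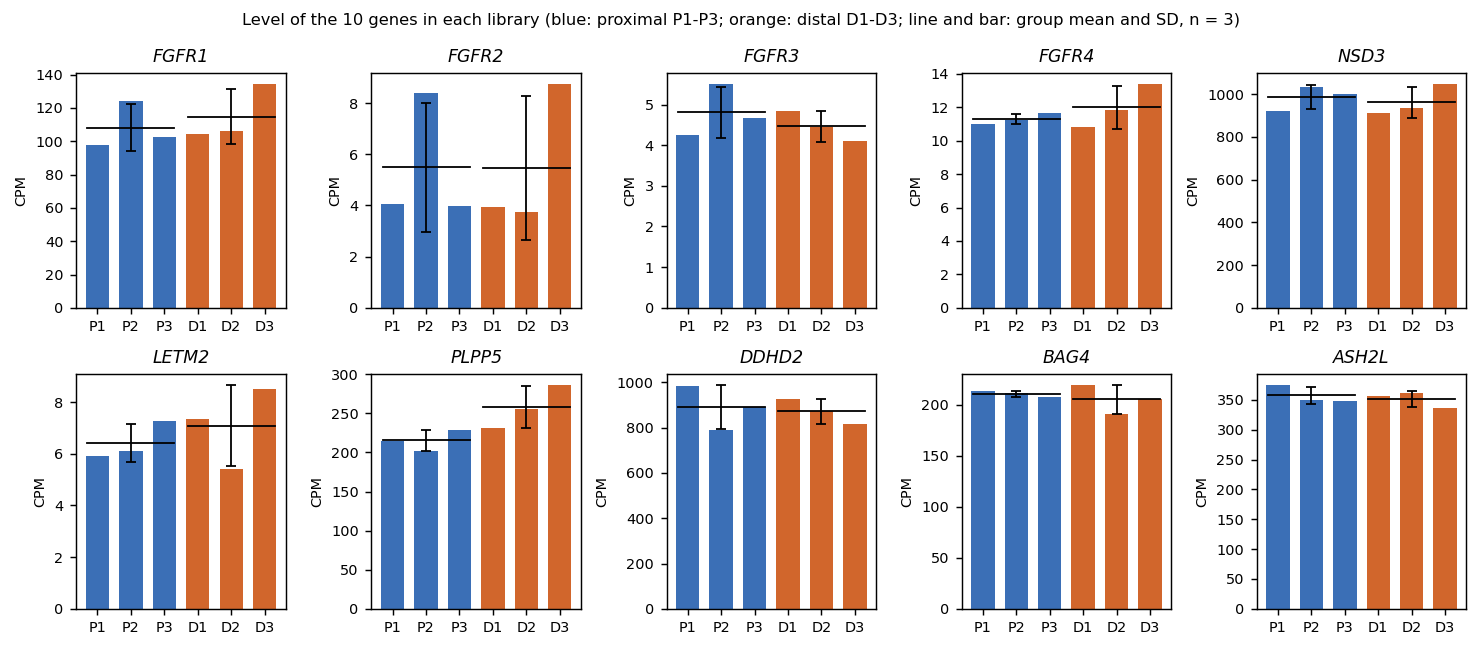
CPM of each of the 10 genes in the proximal (blue, P1 to P3) and distal (orange, D1 to D3) libraries, with the group mean as a line and its SD as an error bar (n = 3 each); each panel has its own axis from 0. FGFR1 and FGFR2 are highest in P2 and D3, and PLPP5 is the gene whose distal libraries all lie above the proximal ones.

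The 6 neighbours of FGFR1 lie on its side toward the chromosome end, and their levels differed widely. ASH2L, BAG4, DDHD2, PLPP5 and NSD3 were above the 90th percentile of the per-kilobase level of all genes tested (43.6 CPM per exon kilobase). FGFR1 and LETM2, the gene that directly adjoins it, were not. They are described from the farthest to the nearest, with RefSeq positions on chromosome 8 (GRCh38).

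ASH2L is a core subunit of the KMT2 complexes that methylate histone H3 lysine 4 (38105493 to 38140080). It had 374, 350.0 and 348 CPM in proximal 1 to 3 and 357, 362 and 336 CPM in distal 1 to 3. The groups overlapped and the spread was the smallest among the 10 genes, with a coefficient of variation of 3.72%. BAG4, a chaperone regulator that binds HSP70 and silences death receptors (38176855 to 38213301), had 214, 211 and 208 CPM in proximal 1 to 3 and 219, 191 and 205 CPM in distal 1 to 3. It was nearly as even, at 4.56%, and distal 2 was its lowest library.

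DDHD2, a phospholipase and triglyceride lipase that is altered in a form of spastic paraplegia (38231585 to 38273647), had the highest per-kilobase level of the 10 genes. It had 986, 792 and 892 CPM in proximal 1 to 3 and 928, 875 and 818 CPM in distal 1 to 3. Here proximal 2 and distal 3 were the lowest libraries, the reverse of FGFR1. Per exon kilobase DDHD2 had 146 CPM (SD 11.8), at percentile 98.0 of the genes tested.

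PLPP5, a lipid phosphatase of the membrane (38263130 to 38269224), was the gene with the clearest order between the groups. It had 215, 202 and 229 CPM in proximal 1 to 3 and 232, 256 and 286 CPM in distal 1 to 3. Every distal library lay above every proximal one, with distal 1 and proximal 3 almost level. NSD3, a histone H3 lysine 36 methyltransferase (38269704 to 38382271), had 924, 1032 and 1001 CPM in proximal 1 to 3 and 910.0, 934 and 1046 CPM in distal 1 to 3. Its groups overlapped fully, and proximal 2 and distal 3 were again the highest.

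LETM2, a relative of the mitochondrial ion exchanger LETM1 (38382431 to 38409527), was low although it lies between NSD3 and FGFR1. It had 5.92, 6.10 and 7.28 CPM in proximal 1 to 3 and 7.36, 5.40 and 8.49 CPM in distal 1 to 3. Per exon kilobase FGFR1 was read at 17.1 and NSD3 at 78.6 CPM, against 1.93 CPM for LETM2. DDHD2 exceeded LETM2 by 56.0 to 96.8 times on that scale.

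Ordered by mean CPM per exon kilobase, the genes ran DDHD2 (146), ASH2L (99.8), PLPP5 (83.2), NSD3 (78.6), BAG4 (46.6), FGFR1 (17.1), FGFR4 (3.64), LETM2 (1.93), FGFR3 (1.04) and FGFR2 (0.82). The ranges over the 6 libraries overlapped between ASH2L and PLPP5, between PLPP5 and NSD3 and between FGFR3 and FGFR2. ASH2L was nonetheless above PLPP5 in all libraries but distal 3 (94.6 against 100.5 CPM per exon kilobase). For the other 2 pairs the order changed between libraries, and they did not differ beyond their spread. The other neighbours in the order did not overlap. Exon length was the union of GENCODE exons, so a gene that uses a short isoform is read too low on this scale.

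Several of these genes were read well above their relatives outside the 8p11 segment. Per exon kilobase NSD3 was 4.81 to 5.49 times its relative NSD1 and 3.55 to 4.23 times NSD2. DDHD2 was 30.4 to 45.3 times DDHD1, a related phospholipase. PLPP5 was 2.98 to 6.78 times PLPP4, its closest relative. ASH2L was 4.04 to 5.02 times its complex partner WDR5 and 7.08 to 7.85 times RBBP5, but only 1.90 to 2.37 times DPY30. BAG4 was 4.93 to 5.44 times BAG5 but 0.63 to 0.81 times BAG6. LETM2 went the other way, with LETM1 at 6.60 to 12.2 times its level.

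The wider neighbourhood, all 28 genes of the table that start within 2 Mb of FGFR1, held 23 tested genes with a median of 22.5 CPM per exon kilobase, beside 7.99 for all tested genes. Above the 90th percentile of all genes were 9 of the 23. Without the 7 named genes of the row it was 4 of 16, with a median of 17.0. On the side toward the chromosome end, LSM1 (an RNA decay factor) had 149, EIF4EBP1 (a translation repressor) 118 and PLPBP (a vitamin B6 binding protein) 98.7 CPM per exon kilobase. RAB11FIP1, BRF2, ERLIN2 and ADGRA2 had 22.8, 22.5, 10.04 and 5.69, and ZNF703, a regulator named in breast cancers with this amplicon, had 1.62. On the side toward the centromere ADAM9, a membrane protease, had 54.9 and TM2D2 31.1, while TACC1 and PLEKHA2 were level with FGFR1 at 17.5 and 16.5. ADAM32, TCIM and ADAM2 had 4.06, 5.47 and 0.87. STAR, the steroidogenic cholesterol carrier, lies between ASH2L and LSM1 and was nearly silent, at 0.32 to 0.67 CPM. The whole chromosome had a median of 8.29 CPM per exon kilobase over 437 tested genes. Levels as high were not limited to the 2 Mb around FGFR1. Toward and past the centromere the median was 31.6 over 19 tested genes at 2 to 6 Mb and 31.9 over 5 at 6 to 10 Mb, with 5 and 2 of them above the 90th percentile. On the other side the 4 tested genes at 2 to 6 Mb had a median of 4.47 and the 17 at 6 to 10 Mb one of 7.42, with 0 above it.

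**Figure D2:**
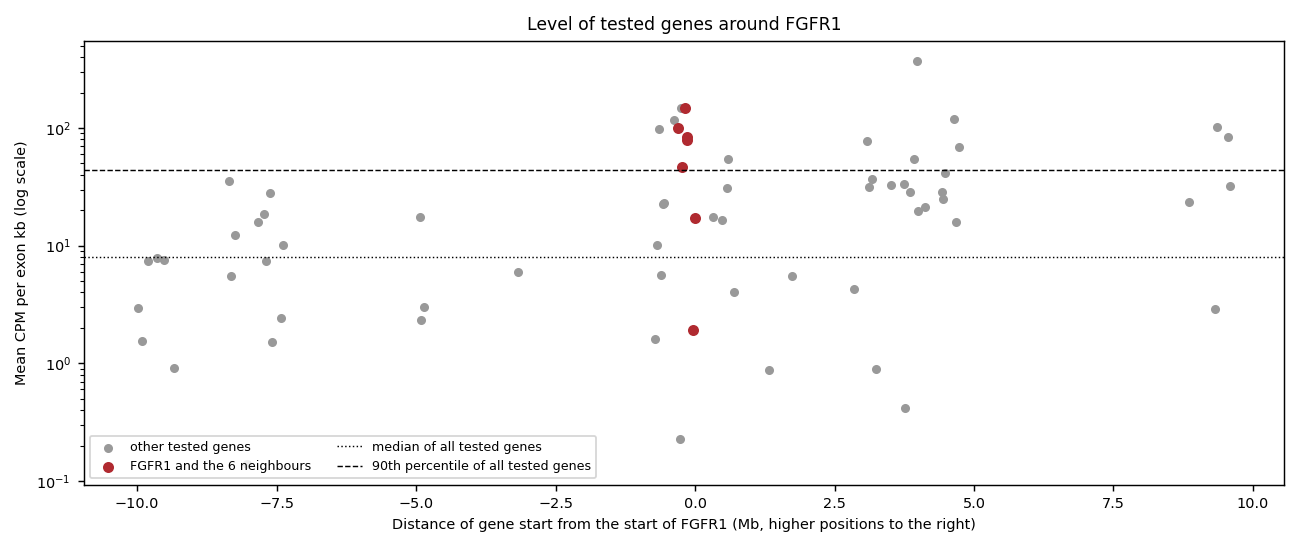
Mean CPM per exon kilobase (log axis) of tested genes within 10 Mb of the start of FGFR1, by distance in Mb; red points are FGFR1 and its 6 neighbours, grey points other tested genes, and lines mark the median (dotted, 7.99) and 90th percentile (dashed, 43.6) of all tested genes. Of the 15 genes up to 2 Mb left of FGFR1 8 lie above the dashed line, as do 1 of 8 from 0 to 2 Mb, 5 of 19 at 2 to 6 Mb and 2 of 5 at 6 to 10 Mb to the right, and LETM2 is the red point far below the others.

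The comparison of distal with proximal tumour asks whether these genes differ along the invaded nerve, and none of the 10 passed the test. Over all genes edgeR's quasi-likelihood test, adjusted by Benjamini-Hochberg at 0.05, called 0 of 13382 (0%), and each of the 10 had an adjusted p of 0.9997. DESeq2 called 1 gene (0.00587%), which was EDIL3 and none of the 10, and limma-voom called 0. At an unadjusted p under 0.05 stood 178 genes (1.33%), 1 of them among the 10.

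FGFR1 had 108 ± 14.2 CPM (SD, n = 3) for proximal and 115 ± 16.7 CPM (SD, n = 3) for distal tumour. Its log2 fold change, distal minus proximal, was 0.09 (SE 0.13, 95% interval -0.20 to 0.37). Without distal 3 the value was -0.04. FGFR2 had 5.49 ± 2.53 and 5.47 ± 2.83 CPM (SD, n = 3), a log2 fold change of -0.01 (SE 0.42, 95% interval -0.98 to 0.95). Leaving out proximal 2 moved it to 0.43 and leaving out distal 3 to -0.51. FGFR3 was at -0.10 (95% interval -0.59 to 0.38), or 0.00 without proximal 2. FGFR4 was at 0.09 (95% interval -0.25 to 0.42), or 0.00 without distal 3.

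PLPP5 came nearest to a difference. Its means were 216 ± 13.4 CPM (SD, n = 3) for proximal and 258 ± 27.1 CPM (SD, n = 3) for distal tumour. The log2 fold change was 0.26 (95% interval 0.05 to 0.47, SE 0.09). PLPP5 did not pass edgeR's quasi-likelihood test (adjusted p 0.9997, unadjusted p 0.0214). It was the 1 gene of the 10 below that unadjusted threshold and higher in distal, beside 0.665% of all tested genes, and the 1 gene whose groups did not overlap, beside 6.28% in either direction, 3.20% with distal higher and 3.09% with distal lower. The unadjusted edgeR p rose to 0.0528 without proximal 1, 0.0866 without proximal 2 and 0.0715 without distal 3. Without both proximal 2 and distal 3 the log2 fold change was 0.13 (SE 0.10, unadjusted edgeR p 0.209). The direction was the same in all 17 alternatives, with values of 0.13 to 0.33.

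The other 5 neighbours had log2 fold changes of -0.03 (NSD3), 0.14 (LETM2), -0.03 (DDHD2), -0.04 (BAG4) and -0.02 (ASH2L). Their 95% intervals were -0.24 to 0.17 for NSD3, -0.35 to 0.62 for LETM2, -0.26 to 0.20 for DDHD2, -0.21 to 0.13 for BAG4 and -0.20 to 0.15 for ASH2L. The interval of each of the 10 genes lay within a 2-fold change in either direction, as it did for 84.0% of all tested genes. Over the 10 genes 4 values were above and 6 below 0, with a median of -0.02, beside 0.00 over all tested genes. In the 2 Mb neighbourhood 14 values were above and 9 below 0, with a median of 0.01.

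**Figure D3:**
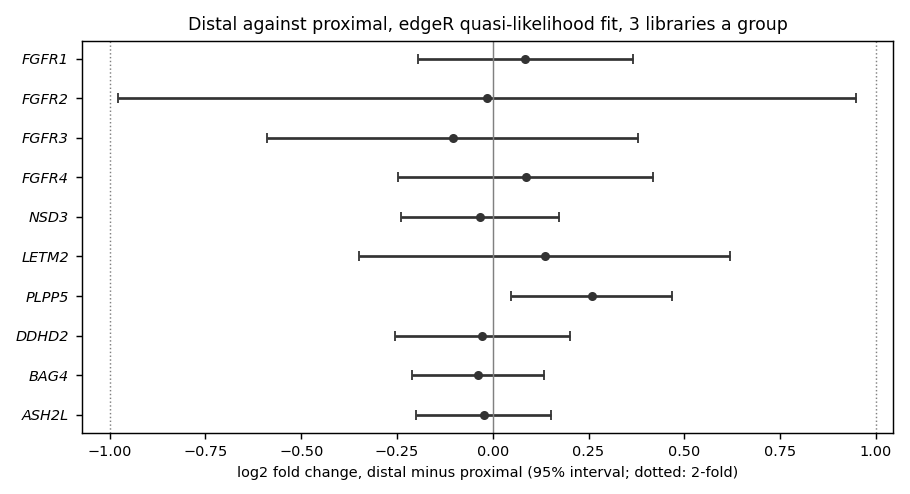
Log2 fold change of each of the 10 genes, distal minus proximal, with the 95% interval of edgeR's quasi-likelihood fit (3 libraries a group); dotted lines mark 2-fold. Every interval but that of PLPP5 (0.05 to 0.47) spans 0, and that of FGFR2 is the widest.

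The libraries varied in a way that crossed the groups. Proximal 2 and distal 3 were the highest libraries for FGFR1, FGFR2 and NSD3, which is 3 of the 10 genes, beside 11.0% of all tested genes. They were the lowest libraries for DDHD2, beside 11.3% of all tested genes. This pair was picked after the levels of the 10 genes were seen, so these shares cannot show an excess among them. Over all tested genes proximal 3 and distal 3 were more often the highest libraries than proximal 2 and distal 3. Among the other 16 tested genes of the neighbourhood proximal 2 and distal 3 were highest for PLPBP, ADGRA2, TACC1 and PLEKHA2. PLEKHA2, a phosphoinositide-binding adaptor, had 87.5, 133 and 76.5 CPM in proximal 1 to 3 and 75.3, 71.9 and 141 CPM in distal 1 to 3, and ADGRA2, an adhesion receptor, ranged from 30.3 to 51.6 CPM. The pattern was not shared along the row: NSD3 and DDHD2 overlap in position, and proximal 2 and distal 3 were highest for the first and lowest for the second. Muscle markers had another order: proximal 2 had 37.9 CPM of them and proximal 3 had 342 CPM. Of the 10 tested small cell and neuroendocrine markers 3 (CHGB, ENO2 and DLL3) were highest in these libraries and 2 (SYP and YAP1) lowest. Of 3 tested epithelial markers EPCAM was highest in them, while CDH1 was lowest in distal 3 (0.37 CPM) and KRT18 lowest in proximal 2 (1.89 CPM). CHGB, a secretory granule protein, had 27.2 and 27.5 CPM in these 2 libraries, against 9.48 to 14.8 CPM elsewhere, and EPCAM 17.2 and 28.0 CPM, against 6.51 to 11.96 CPM. Their part in the levels of FGFR1 and FGFR2 was not tested.

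The genes whose log2 CPM followed FGFR1 most closely over the 6 libraries, among the 9584 genes whose mean reached 10 CPM, were AFF3, SLC7A6, EML1, ATN1 and CFAP36. Their Pearson correlations with FGFR1 were 0.99, 0.99, 0.99, 0.99 and 0.98, and none of the 5 lies on chromosome 8. These correlations rest on 6 points only. Of the 9584 genes 126 reached 0.9 with FGFR1, and 219 were at -0.9 or below. For the other 6 of the 10 genes that were abundant enough, 19 (BAG4) to 208 (NSD3) genes reached 0.9.

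**Figure D4:**
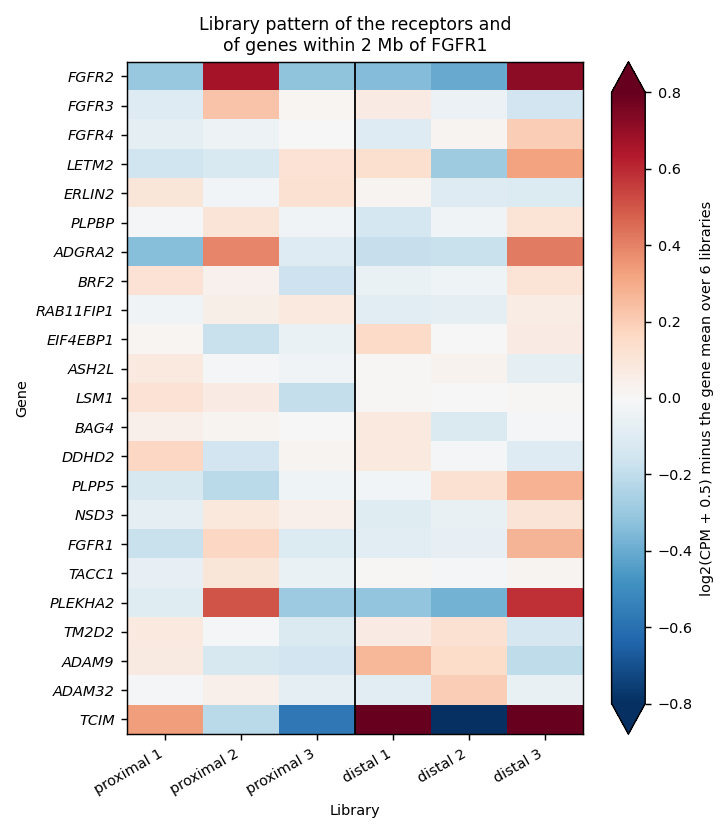
Log2(CPM + 0.5) minus each gene's mean over the 6 libraries (colour, clipped at 0.8 either way) for FGFR2, FGFR3, FGFR4 and LETM2 and, below them in order of position, genes within 2 Mb of FGFR1 whose mean reached 10 CPM. The columns proximal 2 and distal 3 share red cells for FGFR2, ADGRA2, FGFR1 and PLEKHA2, while BAG4 and ASH2L are pale throughout.

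Ligands of the receptors were scarce in the tumour RNA. Of 18 secreted FGFs 15 had a row in the table and 7 passed the filter, and none reached a mean of 10 CPM. FGF19, which signals through FGFR4 with the co-receptor KLB, had 3.41, 3.05 and 4.45 CPM in proximal 1 to 3 and 6.17, 3.30 and 4.82 CPM in distal 1 to 3. No level of KLB was read here. FGF2, a broad ligand of FGFR1, had 2.24, 2.49 and 1.35 CPM in proximal 1 to 3 and 3.52, 2.31 and 4.03 CPM in distal 1 to 3. Distal 1 and distal 3 were above all proximal libraries for FGF2, but distal 2 was not. Its log2 fold change of 0.69 (SE 0.35, 95% interval -0.08 to 1.46) did not pass edgeR's test (adjusted p 0.9997, unadjusted p 0.0746). Without proximal 3 and distal 3 together it was 0.30. FGF4 had 0.67 to 2.44 CPM and FGF9 0.46 to 2.87 CPM, each highest in distal 3. Over the 7 tested ligands 5 values were above and 2 below 0, their median was 0.22 on the log2 scale, and 0 passed the test.

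The intracellular FGF homologous factors are not receptor ligands but partners of sodium channels. FGF12 had 11.8 to 15.7 CPM and FGF11 3.42 to 5.16 CPM, and FGF14 was near 0. FGF13 stood at 5.25 CPM in distal 3 and at most 0.58 CPM in the other 5 libraries. Its log2 fold change of 2.94 (SE 1.49) did not pass the test and was 0.53 without distal 3.

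Co-receptors and heparan sulfate genes were better covered. Of 12 tested co-receptor and binding genes 6 had values above and 6 below 0, with a median of -0.01. SDC1 (syndecan-1) had 63.9 to 72.2 CPM, GPC1 (glypican-1) 42.8 to 54.4 CPM, SDC4 21.7 to 28.3 CPM and the matrix proteoglycan HSPG2 19.2 to 31.9 CPM. HSPG2 had the lowest p of these 4, at -0.29 on the log2 scale (SE 0.17), and at -0.09 once proximal 3 was left out. FGFRL1, a receptor relative without a kinase, had 8.31 to 10.6 CPM. The co-receptor KL had at most 0.06 CPM. Of 11 tested heparan sulfate enzymes 4 were above and 7 below 0 (median -0.04), HS2ST1 at 169 to 190.0 CPM, EXT2 at 114 to 128 CPM, NDST1 at 108 to 130.2 CPM and GLCE at 57.0 to 69.6 CPM among them. GLCE was at -0.09 (SE 0.10), or -0.18 without proximal 3 and -0.05 without proximal 1.

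All 25 adaptors and relays passed the filter, with a median coefficient of variation of 8.03%. FRS2, the docking protein of FGF receptors, had 117 to 141 CPM. NRAS had 344 to 473 CPM, PTPN11 (the phosphatase SHP2) 299.8 to 339 CPM and SOS1 159 to 184 CPM. In this list 10 values were above and 15 below 0, with a median of -0.05, and 0 passed the test. SOS1 was at -0.10 (SE 0.08), or -0.16 without proximal 1.

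The feedback and target genes of ERK signalling were partly abundant, and their median coefficient of variation over libraries was 20.3%, beside 11.0% for all tested genes. CCND1 (cyclin D1) had 1006 to 1561 CPM, ETV1 153 to 279 CPM and PHLDA1 87.5 to 209.9 CPM. DUSP6, the phosphatase that switches off ERK, had 231, 288 and 178 CPM in proximal 1 to 3 and 242, 245 and 383 CPM in distal 1 to 3. Proximal 2 and distal 3 were the highest for DUSP6, as for FGFR1, and also for ETV5, but the lowest for CCND1, ETV4 and EPHA2. The log2 fold change of DUSP6 was 0.32 (SE 0.25, 95% interval -0.30 to 0.94) and did not pass the test. It was 0.07 without distal 3 and 0.16 without proximal 3. SPRY1, DUSP4, FOSL1, EPHA4 and LIF stayed below 1 CPM in every library. Other Sprouty genes were read higher, SPRY4 at 10.4 to 12.8 CPM and SPRY2 at 1.03 to 5.07 CPM. Of the 16 tested genes of this list 9 were above and 7 below 0, with a median of 0.03.

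**Figure D5:**
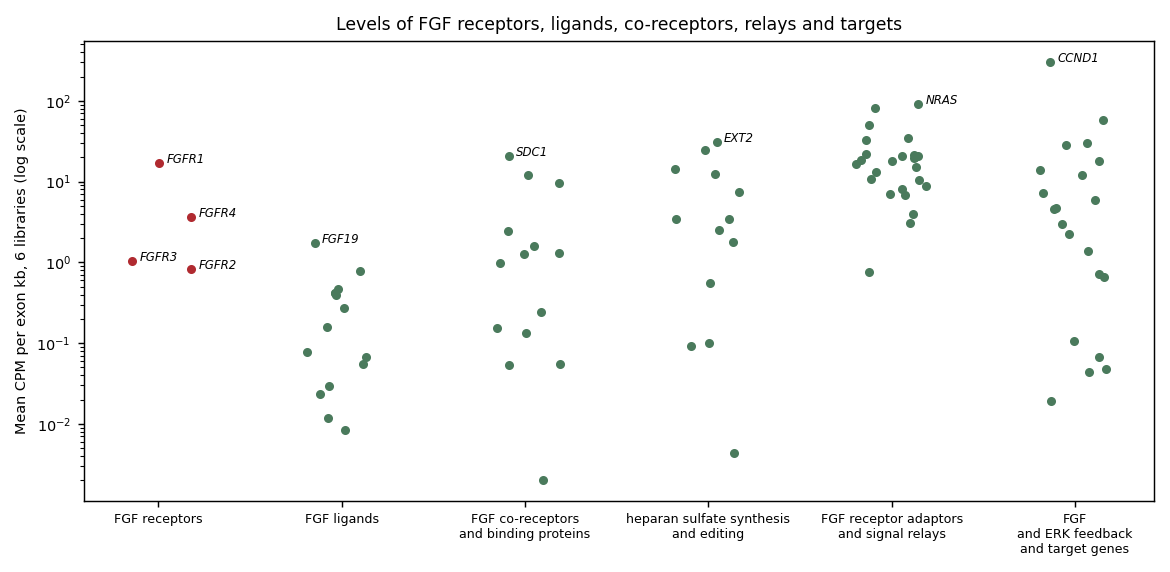
Mean CPM per exon kilobase over the 6 libraries (log axis) of the 4 FGF receptors (red) and of the listed ligands, co-receptors, heparan sulfate enzymes, relays and targets (green), 1 point a gene. FGFR1 lies among the relays, all ligands lie below FGFR4, and CCND1 is the highest point.

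Partners and relatives of the neighbours gave 0 calls as well. Of the 11 KMT2 partners and NSD relatives 2 were above and 9 below 0, with a median of -0.07. KMT2C had the lowest p of the list, with a log2 fold change of -0.20 (SE 0.10, 95% interval -0.42 to 0.02). NSD2 had 332 to 402 CPM, KMT2A 195 to 271 CPM and KMT2D 183 to 254 CPM. Of the 11 relatives of LETM2, PLPP5, DDHD2 and BAG4 6 were above and 5 below 0, with a median of 0.01. BAG6 had 237 to 294 CPM, LETM1 87.4 to 108 CPM, BAG5 45.0 to 51.2 CPM and DDHD1 43.8 to 56.0 CPM, the last with a log2 fold change of -0.14 (SE 0.11), or -0.05 without proximal 2.

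Neighbouring and related genes can share reads, and the strand setting of the counting is not given in the sources used here. The 4 receptors shared no 50-base word with each other in GENCODE transcripts, so that reads of that length without mismatch could not move among them. BAG4 shares 129 exon bases with LSM1 on the other strand and 3.60% of its words with 1 other gene, AC079089.2. LETM2 shares 9.51% of its exon bases with an antisense RNA. The RefSeq spans of PLPP5 and of the end of NSD3 overlap that of DDHD2 on the opposite strand. The words of LETM2 (9.21%), ASH2L (5.54%), DDHD2 (4.95%) and NSD3 (3.65%) occur in part in transcripts of other genes in the reverse direction. For PLPP5 these shares were 0.177% in the same and 0% in the reverse direction.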

How the data were processed

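RNA was measured in 6 libraries, 3 proximal and 3 distal. The table the authors deposited holds unnormalized whole read counts by gene symbol, 1 column per library. The submitters' processing notes list featureCounts 2.0.1, STAR 2.7.3a, Trimmomatic 0.39, DESeq2, bcl2fastq and the build GRCh38, without their roles. Per the labels' protocols, libraries were TruSeq poly(A) libraries from RNA with an integrity number above 7. The annotation, the read length, the host and the treatment of host reads were not given in the sources used here.

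These counts entered edgeR 4.0.16 (R 4.3.3) unchanged (expression filter by group, TMM scaling, robust quasi-likelihood test, Benjamini-Hochberg over all genes tested). The standard error is the absolute log2 fold change over the square root of F. CPM use TMM-scaled sizes. The alternatives were RLE, upper-quartile and total scaling, 2 other filters, DESeq2 1.42.0, limma-voom (limma 3.58.1), a replicate block, a muscle covariate and left-out libraries. A fit without proximal 2 and distal 3 was added after seeing the data. The test was checked on simulated counts. Positions come from RefSeq (GRCh38.p14, 16431 symbols matched) and exon lengths from GENCODE 29 (16770 symbols). The members and gene lists were chosen with earlier results of these data known. The text names the 10 genes, from each list the 4 genes of highest mean CPM, any gene with an unadjusted p under 0.05, neighbours of at least 1 CPM and the 5 closest patterns to FGFR1. Some genes that this rule names are not reported here. Other genes named were chosen after their values were seen.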

Additional observations from a re-analysis of the deposited data

How the results depend on the processing

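edgeR called 0 genes as reported, DESeq2 called 1, and with each library left out edgeR called 0 to 1 (1 without distal 1). The 10 genes were called 0 times under every setting. The alternatives gave 304 values for 18 genes, namely the 10 genes and the named gene of lowest p from each list. Of these values 284 kept their direction and side of the threshold and 20 changed sign. The genes added by their p were picked on these same data, which favours a stable sign, and among them only DUSP6 changed sign. The lowest adjusted p of any of the 18 was 0.998 (edgeR, upper-quartile scaling), so the side of the threshold says little. Without proximal 3 and distal 3 FGFR1 was at -0.078, DDHD2 at 0.019 and DUSP6 at -0.091. Without proximal 2 and distal 3 FGFR3 was at 0.059 and LETM2 at -0.048. FGFR2 was at 0.0023 with upper-quartile scaling and 0.0014 with library totals. With each library left out, the ranges were -0.040 to 0.20 for FGFR1, -0.51 to 0.43 for FGFR2, -0.19 to 0.00040 for FGFR3, -0.10 to 0.0025 for NSD3, -0.012 to 0.30 for LETM2, -0.11 to 0.048 for DDHD2, -0.093 to 0.0060 for BAG4 and -0.048 to 0.0086 for ASH2L. The cause was not tested. With the replicate number as a block edgeR called 0 genes and 0 of the 10. Whether equal numbers mark paired libraries is not known. Deviations from the group means correlated at 0.56, -0.11 and 0.34 for numbers 1, 2 and 3 over 9584 genes. Proximal 1 and proximal 3 correlated best with the distal library of the same number, and proximal 2 with distal 3 (0.08). Deviations within a group of 3 libraries depend on each other, so these correlations cannot decide whether the numbers pair the libraries. Depth limits FGFR2, FGFR3 and LETM2 most, with 67 to 182 counts a library.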

Other observations

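Some genes near FGFR1 or tied to its signalling differed between libraries far more than the 10 genes did, without following the groups. They were chosen after their values were seen. ADAM2, a sperm surface protein gene 1333 kb from FGFR1, had 5.73, 0.05 and 0.99 CPM in proximal 1 to 3 and 2.07, 1.65 and 3.54 CPM in distal 1 to 3. TCIM, a small regulator in the WNT pathway, had 10.8, 7.25 and 5.57 CPM in proximal 1 to 3 and 16.7, 2.68 and 17.8 CPM in distal 1 to 3. Both spread widely within each group. FLRT3, a membrane protein that binds FGF receptors, reached 20.2 CPM in proximal 2, against 1.81 to 5.84 CPM in the rest. Its relative FLRT2 had 6.89 CPM in proximal 1 and 0.23 to 1.71 CPM elsewhere.

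PLPP3 and PLPP4, relatives of PLPP5, were highest in proximal 2 and distal 3, as FGFR1 and FGFR2 were. PLPP4 had 17.3, 36.9 and 21.3 CPM in proximal 1 to 3 and 19.5, 22.5 and 29.4 CPM in distal 1 to 3. PLPP3 reached 6.23 and 7.08 CPM in these 2 libraries, against 2.83 to 3.30 CPM in the rest. PLPP5 did not share this order, since proximal 2 was its lowest library.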
